A study of Mus musculus with 6 samples.

Results

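The set described here holds 42 mouse genes whose transcripts read below an intensity of 32 in every array of a Dicer heterozygous embryonic stem (ES) cell line and at least 64 in every array of a Dicer null line. They were chosen from 18193 genes that have a probe set of their own on the array. A probe set is a group of short probes that reads 1 transcript, and its intensity is given in arbitrary units on a linear scale. Control probe sets and probe sets that carry several genes were left out, and where 2 probe sets of a gene met the thresholds (Lhx9), the one with the higher mean over the 6 arrays was kept. The values that chose the genes are the values of this comparison, so levels and differences of the 42 genes are given as a description, with no test.

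The study compared 2 undifferentiated ES cell lines with 3 arrays each. D4 is Dicer +/- and keeps 1 intact copy of the gene, and the null line, called 27H in the sample titles and 27H10 in the series title, is Dicer -/-. No treatment is named for either line. Each genotype is represented by 1 line, so genotype and line cannot be told apart, and no label ties the 3 arrays of a line to cultures of their own. P-values therefore measure only the spread between these arrays, which may be technical. Dicer1 itself read 1117, 1124 and 1053 against 1256, 1132 and 1203 in heterozygous and null arrays (log2 difference 0.12, limma adjusted p 0.222). The extent of the Dicer1 deletion is not in the labels, and a probe set outside it does not check the genotypes.

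Dicer is the ribonuclease that cuts precursor hairpins into mature microRNAs, which pair with messenger RNAs and lower their stability and translation. ES cells without Dicer keep dividing but lose nearly all microRNAs and differentiate poorly. Many genes of differentiated tissues are silent in ES cells, some under DNA methylation or Polycomb marks and others because the factors that drive them are missing. Genes of the interferon response are a further class of low transcripts in ES cells, which respond weakly to viral RNA.

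Promoter windows of 28 of the 42 genes were found in the RefSeq table of mouse assembly GRCm38.p6, each running from 250 bases before to 50 after a start site. A pair of them is shown because they carry a motif of the interferon response, and another pair because they belong to the genes with the highest null intensities and differ in CpG content. In each, the 150 bases before the start site are printed 5′ to 3′ on the gene's strand. Capitals in the Ifit1 and Ddx60 windows mark the core of the interferon-stimulated response element, on either strand. Capitals in the Mmp23 and Smyd1 windows mark CpG dinucleotides.
Ifit1, chr19:34640739-34640888, plus strand: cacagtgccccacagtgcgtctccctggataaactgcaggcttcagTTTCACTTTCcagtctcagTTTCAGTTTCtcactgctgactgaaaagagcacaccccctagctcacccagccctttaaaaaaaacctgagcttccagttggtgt
Ddx60, chr8:61927937-61928086, plus strand: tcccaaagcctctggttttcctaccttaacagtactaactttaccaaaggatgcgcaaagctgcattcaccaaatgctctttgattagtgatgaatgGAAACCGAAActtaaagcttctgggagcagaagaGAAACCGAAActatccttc
Mmp23, chr4:155653291-155653440, minus strand: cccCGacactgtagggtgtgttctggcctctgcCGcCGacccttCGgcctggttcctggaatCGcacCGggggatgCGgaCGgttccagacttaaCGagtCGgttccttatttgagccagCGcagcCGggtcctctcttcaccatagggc
Smyd1, chr6:71262282-71262431, minus strand: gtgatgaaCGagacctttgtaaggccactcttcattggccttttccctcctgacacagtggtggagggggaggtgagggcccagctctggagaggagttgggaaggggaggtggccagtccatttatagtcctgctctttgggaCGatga

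Few low transcripts of the heterozygous line reached the higher threshold in the null line. Of 13444 probe sets below 32 in all heterozygous arrays, 79.2% were below 32 in all null arrays too, and 48, or 0.357%, were at least 64 in all of them. The mirrored rule, below 32 in every null array and at least 64 in every heterozygous array, was met by 52 of 14813 probe sets (0.351%) and by 40 genes. With the values as deposited, the set is thus about as large as its mirror image, and no test of that was made. With the arrays centred on their medians the set held 51 genes, and no count of the mirrored rule is given for that scale. By construction the 2 lines did not overlap for any of the 42 genes; over all 34945 probe sets with 1 gene, the null arrays all lay above the heterozygous arrays in 18.4%.

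The 42 genes reached modest levels in the null line. Their mean null intensity ran from 67.1 for Cd248 to 339 for Mmp23, with a median of 114, and 27 of them stayed under 2 times the upper threshold. These means correspond to the 56.1th to 73.5th percentile of all probe sets on a null array. Between 55.2% and 55.8% of the probe sets of a null array were under 64, and between 39.7% and 41.3% of those of a heterozygous array were under 32. No detection calls were used, so an intensity below 32 is a low reading and does not show that a transcript was absent. Because a ratio to such readings has little meaning, folds of the 42 genes are given with values under 32 raised to 32; they ran from 2.10 to 10.6, with a median of 3.54, and 14 genes were at 4 or more.

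**Figure D1:**
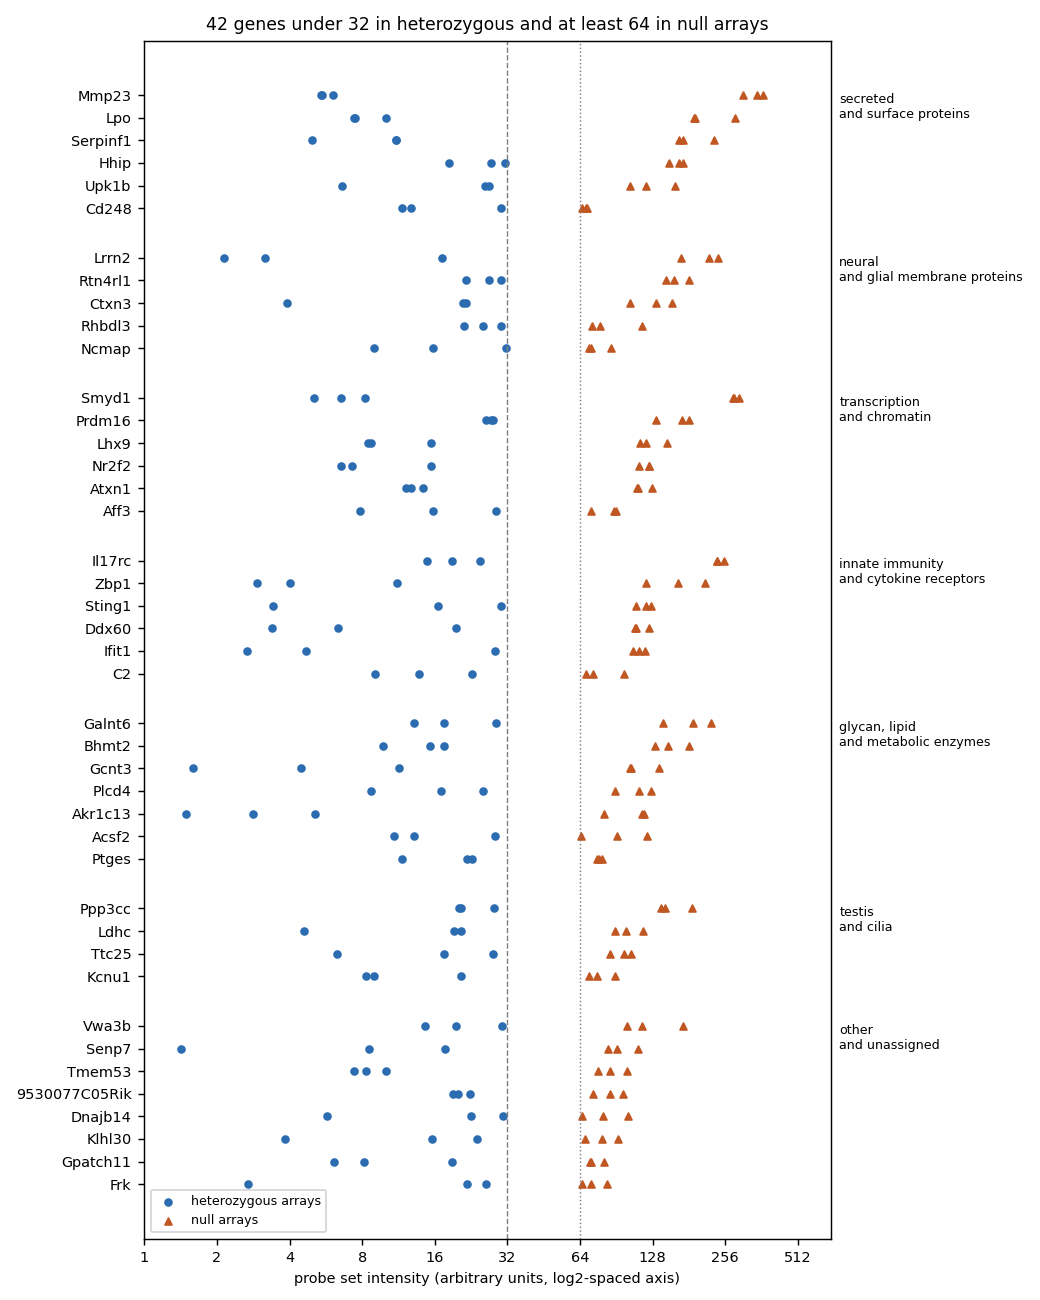
Intensity of the chosen probe set of each of the 42 genes in the 3 heterozygous arrays (circles) and 3 null arrays (triangles), on a log2-spaced axis, grouped by role. The dashed line is at 32 and the dotted line at 64. Mmp23, Smyd1 and Il17rc lie farthest to the right in the null arrays, and the lowest null points of Acsf2, Cd248 and Frk lie closest to the line at 64.

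The number of genes depends on the arrays that define it. Without heterozygous replicate 1 or heterozygous replicate 2, 64 and 65 genes met the thresholds, while 47 to 59 did so without any one of the other arrays; since every array had to pass, leaving one out can only add genes. Within the null line the 3 arrays were close to each other: the highest was 1.05 to 1.88 times the lowest, with a median of 1.32. Every null array had to reach 64 for each gene, so no single null array could carry the set. Among the null arrays, 17 genes were highest in replicate 1, 12 in replicate 2 and 13 in replicate 3. The coefficient of variation was lowest for Ptges (2.64%) and Cd248 (2.82%) and highest for Acsf2 (30.7%).

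Genes of secreted and surface proteins held the highest median null level among the roles, 175 over 6 genes. Mmp23, a membrane-anchored metalloproteinase, read 6.08, 5.44 and 5.39 in the heterozygous arrays and 368, 347 and 302 in the null arrays, a fold of 10.6. With this probe set, its heterozygous readings were close to each other and far below the threshold. A further probe set of Mmp23, 1417282_at, read 79.2, 65.2 and 57.4 against 286, 367 and 272 in the null arrays, a fold of 4.59. Lpo, the secreted antimicrobial enzyme lactoperoxidase, read 7.46, 7.41 and 10.02 in the heterozygous arrays and 192, 281 and 189 in the null arrays, a fold of 6.78. Serpinf1, a secreted serpin that restrains blood vessel growth, read 11.1, 4.98 and 11.1 in the heterozygous arrays and 164, 171 and 231 in the null arrays, a fold of 5.82. Hhip, a surface protein that binds hedgehog ligands and dampens their signal, read 31.3, 27.4 and 18.3 in the heterozygous arrays and 164, 171 and 149.9 in the null arrays, a fold of 5.04. With the chosen probe sets, Hhip came within 1 unit of the lower threshold in heterozygous replicate 1, in contrast to the first 3 of these genes.

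Upk1b and Cd248 were the dimmer members of this role. Upk1b, a tetraspanin of the bladder lining, read 25.8, 6.59 and 26.9 in the heterozygous arrays and 159, 103 and 121 in the null arrays, with null replicate 1 highest. Cd248 (endosialin), a surface glycoprotein of pericytes and fibroblasts, read 30.0, 11.8 and 12.7 in the heterozygous arrays and 68.5, 65.0 and 67.9 in the null arrays. Cd248 lies just inside both thresholds and has the smallest fold of the set, 2.10. Markers of feeder fibroblasts summed to 1599 to 1768 in the heterozygous arrays and 2355 to 2598 in the null arrays over 12 genes. Of these, the matrix proteoglycan gene Dcn rose from 31.0 ± 23.8 to 263 ± 56.6 and the collagen gene Col1a1 fell from 70.0 ± 27.96 to 6.62 ± 1.91 (SD, n = 3; limma adjusted p 9.3e-05 and 0.00522), and Postn was under 32 in all arrays. Fbln1 was the brightest of the 12 in both lines. It rose from 952 ± 103 to 1459 ± 80.8 (SD, n = 3), at a limma adjusted p of 0.000246. Col5a2 rose from 209 ± 8.42 to 363 ± 15.6 (limma adjusted p 0.000237). Thy1 fell from 171 ± 16.3 to 119 ± 2.77 (limma adjusted p 0.0305). Col1a2, Col3a1 and Lox read lower in null cells on average, and Pdgfrb and Col6a3 higher. None of these reached a limma adjusted p under 0.05. The feeder markers thus moved both ways. The part of fibroblasts in the level of Cd248 was not tested.

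Transcription and chromatin regulators formed a group of 6. Smyd1, a muscle-restricted lysine methyltransferase, read 5.05, 8.18 and 6.56 in the heterozygous arrays and 293, 277 and 279 in the null arrays, a fold of 8.84, second to Mmp23. Prdm16, a zinc finger factor of brown fat and blood stem cells, read 27.8, 27.3 and 26.1 in the heterozygous arrays and 182, 133 and 168.98 in the null arrays, a fold of 4.99. The heterozygous arrays of Prdm16 were within 2 units of each other, just below the threshold. Lhx9, a LIM homeobox factor needed for gonad formation, read 8.45, 8.74 and 15.5 in the heterozygous arrays and 114, 120.4 and 147 in the null arrays. Nr2f2 (COUP-TFII), an orphan nuclear receptor of mesenchyme and veins, read 15.5, 7.29 and 6.55 in the heterozygous arrays and 112, 124 and 124 in the null arrays. Atxn1, the polyglutamine protein ataxin-1 and a partner of transcriptional repressors, read 12.1, 12.8 and 14.3 in the heterozygous arrays and 127, 109.8 and 111 in the null arrays. The last 3 had similar null levels, with folds of 3.94, 3.74 and 3.62. Aff3, a relative of subunits of the super elongation complex, was lower, at 83.2 ± 10.3 in the null arrays (SD, n = 3).

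A further 6 genes act in innate immunity or as cytokine receptors. Il17rc, a subunit of the receptor for interleukin-17 cytokines, read 24.6, 14.8 and 18.9 in the heterozygous arrays and 252, 236 and 236 in the null arrays, a fold of 7.54. Zbp1, which senses left-handed nucleic acids and can trigger necroptosis, read 4.02, 2.94 and 11.1 in the heterozygous arrays and 210.3, 120.4 and 163 in the null arrays with the chosen probe set, a fold of 5.01. Sting1, the adaptor that relays cytosolic DNA signals to interferon genes, read 30.2, 16.5 and 3.40 in the heterozygous arrays and 126, 109 and 120.4 in the null arrays. With the chosen probe sets, the null arrays of Zbp1 were spread more widely than those of Il17rc or Sting1. Ifit1, which binds viral RNA that lacks host cap methylation, read 2.67, 28.5 and 4.67 in the heterozygous arrays and 106, 112 and 119 in the null arrays. Ddx60, a helicase induced by interferon, read 19.6, 3.39 and 6.38 in the heterozygous arrays and 109, 108 and 124 in the null arrays. In Ifit1 and Ddx60 a single heterozygous array stood above the others, replicate 2 and replicate 1 respectively, and stayed below 32. C2, a protease of the complement cascade, was the dimmest of the 6, at 79.2 ± 15.7 in the null arrays (SD, n = 3).

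Membrane proteins of neurons or glia numbered 5. Lrrn2, a neuronal leucine-rich repeat protein, read 3.15, 17.1 and 2.15 in the heterozygous arrays and 167, 219.8 and 239.9 in the null arrays, a fold of 6.46. Rtn4rl1, a relative of the Nogo receptor that limits axon growth, read 21.5, 30.2 and 26.9 in the heterozygous arrays and 146, 158 and 180.3 in the null arrays, a fold of 5.02. Ctxn3, a small membrane protein of the cortexin family, read 3.91, 20.9 and 21.5 in the heterozygous arrays and 103, 132 and 154 in the null arrays, a fold of 4.01. The heterozygous readings were low in replicates 1 and 3 for Lrrn2 and in replicate 1 for Ctxn3, and no null array overlapped them. The intramembrane protease relative Rhbdl3 and the Schwann cell protein Ncmap were lower, at 88.4 ± 24.2 and 75.7 ± 9.19 in the null arrays (SD, n = 3). Ncmap held the heterozygous value nearest to the threshold in the whole set, at 31.5, 15.8 and 8.99 against 86.3, 71.2 and 69.7.

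Enzymes of glycans, lipids and small molecules numbered 7. Galnt6, which starts mucin-type O-glycans, read 17.4, 13.1 and 28.6 in the heterozygous arrays and 188, 141 and 224 in the null arrays, a fold of 5.66. Gcnt3, which branches the same glycans in mucous epithelia, read 1.59, 11.4 and 4.46 in the heterozygous arrays and 103, 104 and 136 in the null arrays, a fold of 3.53. These 2 glycosyltransferases act in 1 pathway, and the null arrays of Gcnt3 lay below those of Galnt6; levels of different probe sets are not comparable as amounts of RNA. Bhmt2, a methyltransferase that turns homocysteine into methionine, read 15.3, 9.75 and 17.5 in the heterozygous arrays and 131, 148 and 181 in the null arrays, a fold of 4.75. Akr1c13, an aldo-keto reductase, read 1.49, 2.82 and 5.12 in the heterozygous arrays and 80.4, 118 and 116 in the null arrays, a fold of 3.22, and had the lowest mean heterozygous reading of the set, 3.14. The phospholipase Plcd4 was at 109 ± 18.2, the acyl-CoA synthetase Acsf2 at 92.6 ± 28.5 and the prostaglandin E synthase Ptges at 77.1 ± 2.04 in the null arrays (SD, n = 3). Acsf2 held the lowest single null value of the set, at 13.1, 10.8 and 28.3 against 91.3, 122 and 64.9.

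Testis and cilia genes made up 4 of the set. Ppp3cc, a catalytic subunit of calcineurin enriched in testis, read 20.5, 20.1 and 28.2 in the heterozygous arrays and 139, 187 and 145 in the null arrays, a fold of 4.85. Ldhc, the lactate dehydrogenase of sperm, was at 102 ± 13.8, Ttc25, which docks dynein arms in cilia, at 95.5 ± 9.73, and Kcnu1, a potassium channel of sperm, at 78.2 ± 10.2 in the null arrays (SD, n = 3). Their folds were 3.16, 2.97 and 2.43, below the median of the set.

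The remaining 8 genes have no shared role. Vwa3b, a protein with a von Willebrand factor domain, was the brightest of them and read 30.3, 14.5 and 19.6 in the heterozygous arrays and 170.2, 116 and 100.4 in the null arrays. The SUMO protease Senp7, the transmembrane protein gene Tmem53, 9530077C05Rik, the co-chaperone gene Dnajb14, Klhl30, Gpatch11 and the Src-family kinase Frk had mean null intensities of 95.3 down to 72.9 in that order. Dnajb14 and Frk came close to the thresholds, at 22.6, 30.6 and 5.70 against 101, 79.7 and 65.2 and 21.9, 26.1 and 2.70 against 82.9, 70.7 and 65.2. These 8 genes had the lowest median fold of any role, 2.57.

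Some genes lay just outside the thresholds. Tent5c, Tspan1 and Mall were below 32 in all heterozygous arrays and missed 64 in at least 1 null array. They read 6.03, 27.0 and 22.5 against 63.1, 66.0 and 115 for Tent5c, a stabiliser of messenger RNA tails, 18.3, 2.01 and 7.40 against 61.1, 77.9 and 74.9 for the tetraspanin gene Tspan1, and 15.0, 21.9 and 2.72 against 59.6, 61.5 and 64.6 for Mall, a membrane raft protein. Tspan32, Asb3 and Bcl11a passed 64 in all null arrays but exceeded 32 in the heterozygous line. They read 28.5, 32.3 and 30.0 against 174, 233 and 207 for the blood cell tetraspanin gene Tspan32, 32.1, 32.3 and 32.3 against 68.2, 74.3 and 75.3 for Asb3, which recruits substrates for ubiquitination, and 33.4, 24.1 and 23.0 against 103, 119 and 178 for Bcl11a, a repressor of fetal globin genes. Tspan32 missed the set by less than 1 unit in 1 array, with null levels above those of most of the 42 genes.

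Other probe sets, where a gene has them, show where low readings in the heterozygous line are shared and where they hold for 1 probe set. Of the 42 genes, 14 have no further probe set and 28 have 54 more between them. In 20 genes every probe set was below 32 in all heterozygous arrays. These include the 14 genes with no further probe set, for which the rule fixed this outcome, Lpo, Lrrn2, Akr1c13, Ifit1 and Ctxn3 among them. The others are C2, Gcnt3, Ppp3cc, Il17rc, Plcd4 and Rhbdl3. Further probe sets of the last 3 were below 32 in the null arrays too, so they do not inform on the gene. In 22 genes another probe set reached 32 in a heterozygous array, and in 14 it did so in all of them, so the label silent does not hold for these genes. The 14 are Mmp23, Smyd1, Galnt6, Serpinf1, Prdm16, Rtn4rl1, Zbp1, Atxn1, Ldhc, 9530077C05Rik, Senp7, Dnajb14, Aff3 and Ptges. When the brightest probe set of each gene was taken first and the thresholds applied to it, 23 genes met them, all of them among the 42.

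Among those 14, the differences between lines were often large. For Zbp1, probe set 1429947_a_at read 61.3, 56.9 and 60.3 in the heterozygous arrays and 1289.9, 1384 and 1219 in the null arrays, a fold of 21.8, well above the chosen probe set in both lines. For Smyd1, 1441667_s_at read 43.5, 42.9 and 34.1 in the heterozygous arrays and 573, 696 and 840.3 in the null arrays, a fold of 17.4, and 1450203_at read 50.8, 43.6 and 23.5 against 674, 642 and 541. Its remaining probe sets did not share this difference. Of these, 1427714_at was below 32 in all arrays, and 1443726_at and 1443727_x_at were at folds of 1.39 and 1.08. For Serpinf1, 1416168_at read 39.0, 54.6 and 46.8 in the heterozygous arrays and 386, 399 and 341 in the null arrays, a fold of 8.08. By 1 such probe set each, Zbp1, Smyd1 and Serpinf1 were thus low but above 32 in every heterozygous array, and their null arrays lay above the heterozygous arrays. Galnt6 read 209 ± 21.3 and 691 ± 142 with 1434399_at and Aff3 360.1 ± 52.8 and 825 ± 109.8 with 1433939_at in heterozygous and null cells (SD, n = 3). These 2 genes were clearly measured in heterozygous cells, and their folds there were 3.27 and 2.29. Outside these 14 genes, Hhip had 3 further probe sets at folds of 9.51, 6.90 and 4.54, and Sting1 and Bhmt2 had 1 each, at 6.99 and 5.86.

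Of the 28 genes with further probe sets, 15 had one at a fold of 2 or more and 13 had none. The 13 were Senp7, Ppp3cc, Frk, Rtn4rl1, C2, 9530077C05Rik, Gcnt3, Ddx60, Upk1b, Dnajb14, Il17rc, Plcd4 and Rhbdl3. Upk1b had 3 others, of which 2 were below 32 in all arrays and 1457065_at read 4.76, 37.8 and 5.57 against 73.0, 16.2 and 6.56. Plcd4 had 2, and Il17rc and Rhbdl3 1 each, all below 32 in every array, so their high null readings rest on 1 probe set each. Dnajb14 read 60.3 ± 6.02 and 64.1 ± 15.1 with 1430561_at, a fold of 1.05, where the chosen probe set gave 2.52. Lhx9 was matched by 1429905_at (2.77-fold) but not by 1431598_a_at, at 41.1 ± 13.3 and 20.9 ± 18.6 (SD, n = 3). In Nr2f2, 1416159_at was at a fold of 2.75, and no other further probe set reached 2. Of these, 1436475_at, 1416160_at and 1444229_at were at 1.63, 1.15 and 0.918, and 1431237_at was below 32 in all arrays. Over the 54 further probe sets, 21 (38.9%) had a fold of at least 2 in favour of null cells, against 4.1% of all probe sets with 1 gene, and 0 had a fold of 2 the other way. The null arrays all lay above the heterozygous arrays in 31 of them (57.4%), against the 18.4% given above. These probe sets were read on the arrays that chose the genes and are no independent evidence. The chosen probe sets of Bhmt2, Upk1b, Sting1 and C2 have names ending in _s_at or _x_at, which mark sequence shared with other transcripts, so signal from another gene may be included. A further 7 end in _a_at, for several transcripts of 1 gene.

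**Figure D2:**
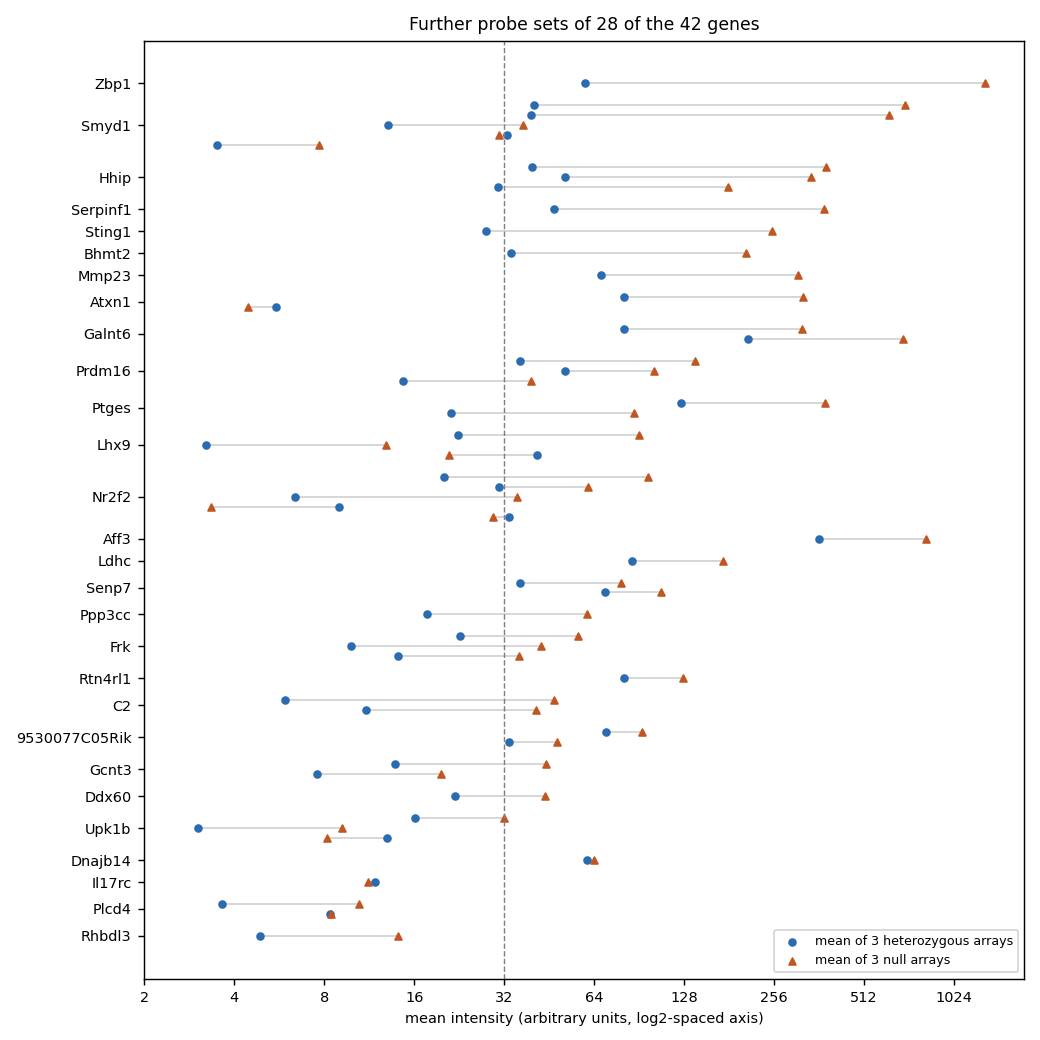
Mean intensity over 3 heterozygous arrays (circles) and 3 null arrays (triangles) of the 54 further probe sets of 28 genes, 1 line per probe set, on a log2-spaced axis with a dashed line at 32. Zbp1, Smyd1 and Hhip have probe sets with wide gaps, while the further probe sets of Plcd4, Il17rc and Rhbdl3 stay below 32.

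Chromosomes 1 and 11 held more of the set than other chromosomes. Each carried 6 of the 42 genes: Lrrn2, Lhx9, Aff3, Plcd4, Klhl30 and Vwa3b on chromosome 1, and Lpo, Serpinf1, Rtn4rl1, Rhbdl3, Ttc25 and Acsf2 on chromosome 11. Together that is 28.6% of the set, against 14.1% of the 12927 tested genes and 5 of the 40 genes of the mirrored rule (12.5%). The tested genes of these chromosomes that are not in the set had median log2 differences, null minus heterozygous, of 0.30 and 0.29, while that of all other chromosomes together was -0.06. Whether the raised medians of these chromosomes bear on the 12 genes was not tested. Leaving both chromosomes out leaves 30 genes in the set. No gene of the set lies on the X chromosome, which holds 4 of the mirrored rule.

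**Figure D3:**
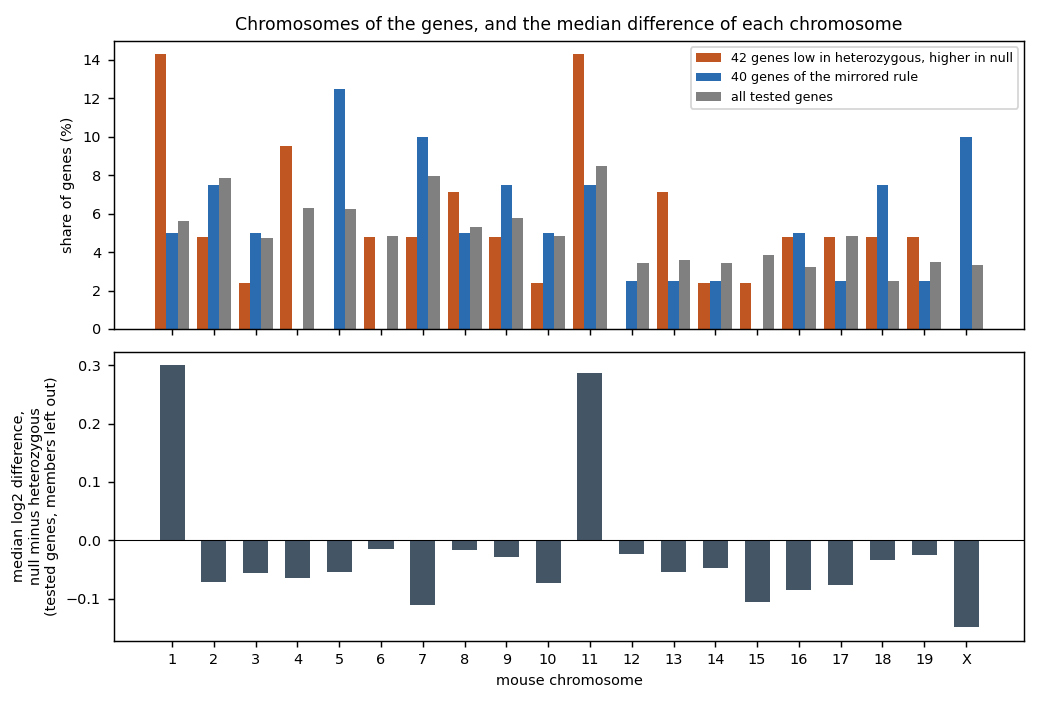
Upper panel, share of the 42 genes, of the 40 genes of the mirrored rule and of the 12927 tested genes on each chromosome, in percent. Lower panel, median log2 difference, null minus heterozygous, of the tested genes of each autosome and the X chromosome with the 42 genes left out; chromosomes 1 and 11 stand above 0 and all others drawn lie below it.

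Genes next to the set on the chromosome were called higher in null cells more often than all tested genes. Taking the nearest tested gene on each side that is not in the set gave 84 neighbours, of which 13 (15.5%) were called higher and 2 (2.38%) lower. Called means a limma adjusted p under 0.05 with a log2 difference of at least 1, and over all 12927 tested genes 7.23% were called higher and 6.2% lower, 934 and 802 genes. With the arrays centred on their medians, which moved the median difference of all tested genes from -0.01 to 0.14, these were 1268 and 574. With the neighbours on chromosomes 1 and 11 left out, 9 of 60 (15%) were called higher, against 6.36% of the tested genes of the other chromosomes. The difference between neighbours and other genes was not tested.

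Around Bhmt2 both neighbours rose. Bhmt, a betaine-dependent methyltransferase that also turns homocysteine into methionine, rose from 75.7 ± 31.9 to 249.97 ± 12.9 (SD, n = 3). Its log2 difference was 1.80 (limma adjusted p 0.000215). Dmgdh, which degrades the dimethylglycine that Bhmt forms, rose from 45.7 ± 18.6 to 204 ± 42.4 (2.22, limma adjusted p 0.000199). Bhmt and Bhmt2 are close relatives, and the chosen Bhmt2 probe set is one of those that share sequence, so their signals may not be fully separate. Dmgdh is not a relative of either.

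The other called neighbours were single genes. Rcan3, an inhibitor of calcineurin beside Ncmap, rose from 193 ± 7.08 to 756 ± 59.8, and Cnp, a myelin enzyme beside Ttc25, from 1040.3 ± 88.0 to 3000.3 ± 109 (SD, n = 3). Palld, an actin-binding protein beside Ddx60, rose from 1079.8 ± 76.9 to 2492 ± 57.1. These 3 were bright in heterozygous cells, unlike the genes of the set. Tmem151a beside Cd248 and 1700066B19Rik beside Sting1 were low there, and rose from 29.4 ± 21.1 to 208 ± 14.3 and from 20.3 ± 17.0 to 66.9 ± 16.3. Lonrf2 (beside Aff3), 2310009B15Rik (Lhx9), Mks1 (Lpo), Mylip (Atxn1), Thnsl2 (Smyd1) and Hgsnat (Kcnu1) rose by log2 differences of 1.85, 1.36, 1.09, 1.22, 1.05 and 1.26. Sorbs3 beside Ppp3cc and Zbtb12 beside C2 fell, at -1.53 and -1.35.

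Other genes of the interferon and double-stranded RNA response were often higher in null cells. The list holds 42 symbols, of which Ifit1 and Zbp1 are in the set and 31 others were tested. Of these 31, 15 were called higher and 1 lower, against the 7.23% and 6.2% of all tested genes, and their median log2 difference was 1.19, against -0.01 over all tested genes. Lgals3bp, which binds galectins outside the cell, rose from 17.0 ± 20.5 to 467 ± 89.2 (SD, n = 3); raised to 32, its fold was 13.3. It missed the set through heterozygous replicate 2, at 40.6. Lgals9, a galectin induced by interferon, rose from 280.0 ± 18.6 to 3056 ± 139, with a limma adjusted p of 1.06e-09. Ifi35, an interferon-induced leucine zipper protein, rose from 675 ± 89.9 to 5572 ± 31.3, and Psmb8, a subunit of the immunoproteasome, from 118 ± 16.9 to 785 ± 73.3. The last 3 were above 64 in every heterozygous array. Lgals3bp, Lgals9 and Ifi35 lie on chromosome 11. Without probe sets ending in _a_at, _s_at or _x_at, which include those of Lgals9, Ifi35 and Psmb8, 22 of the others were tested and 9 called higher. Ddx60 and Sting1 are not on the list.

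Detoxification genes other than Akr1c13 rose where they passed both thresholds. Of 22 others tested, 6 (27.3%) were called higher and 0 lower, against 7.23% and 6.2% of all tested genes. At a limma adjusted p under 0.05 alone, 14 were higher and 1 lower, against 24.5% and 24.3% of all tested genes, and 1 was lower at an unadjusted p under 0.05. The median log2 difference was 0.58. Cyp1b1, a cytochrome P450 of hormone and hydrocarbon metabolism, rose from 41.1 ± 28.3 to 170.2 ± 34.5 (SD, n = 3); with the floor, its fold was 3.97. Nqo1, a quinone reductase, rose from 391 ± 18.4 to 1158 ± 26.8, the glutathione transferase gene Gstm2 from 501 ± 15.1 to 1336 ± 35.1, and the carbonyl reductase gene Cbr3 from 3539 ± 266 to 9174 ± 343. The last 3 were well measured in heterozygous cells, above 64 in every array, where Akr1c13 was not.

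Germline genes, none of which is in the set, moved both ways. Of 27 tested, 9 (33.3%) were called higher and 4 (14.8%) lower, against 7.23% and 6.2% of all tested genes, with a median log2 difference of 0.35. Smc1b, a cohesin subunit of meiosis, rose from 43.4 ± 12.3 to 212 ± 10.7 (SD, n = 3). Sycp1, a protein of the synaptonemal complex, fell from 146 ± 25.9 to 44.8 ± 14.8, and Tex15, a testis gene needed for meiosis, from 331 ± 43.4 to 106 ± 15.9. Asz1, which acts in the piRNA pathway, was called higher at a log2 difference of 3.56, but reached only 46.8 ± 16.4 (SD, n = 3) in the null arrays and is at a fold of 1.41 with the floor. Ldhc and Kcnu1 are expressed in the male germ line but are not on the list.

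The epithelial and mucosal genes and the neuronal adhesion genes were called in both directions. Of 20 epithelial and mucosal genes tested beside Lpo and Gcnt3, 2 (10%) were called higher and 3 (15%) lower, against 7.23% and 6.2% of all tested genes, with a median of -0.24. Msln (mesothelin) rose from 48.1 ± 24.6 to 969 ± 48.6 (SD, n = 3) and Wfdc2, a secreted protease inhibitor, from 454 ± 63.4 to 1816 ± 89.0, while the trypsin inhibitor gene Spink1 fell from 2990.0 ± 307 to 87.5 ± 11.8 and the claudin gene Cldn6 from 1341 ± 37.0 to 181 ± 51.6. Of 12 leucine-rich repeat and neuronal adhesion genes beside Lrrn2, 1 (8.33%) was called higher and 2 (16.7%) lower, with a median of 0.17. Ncam1, a neural cell adhesion molecule, rose from 130.4 ± 14.2 to 317 ± 71.4, and the cell adhesion gene Nrcam fell from 159.5 ± 11.5 to 37.2 ± 15.9.

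**Figure D4:**
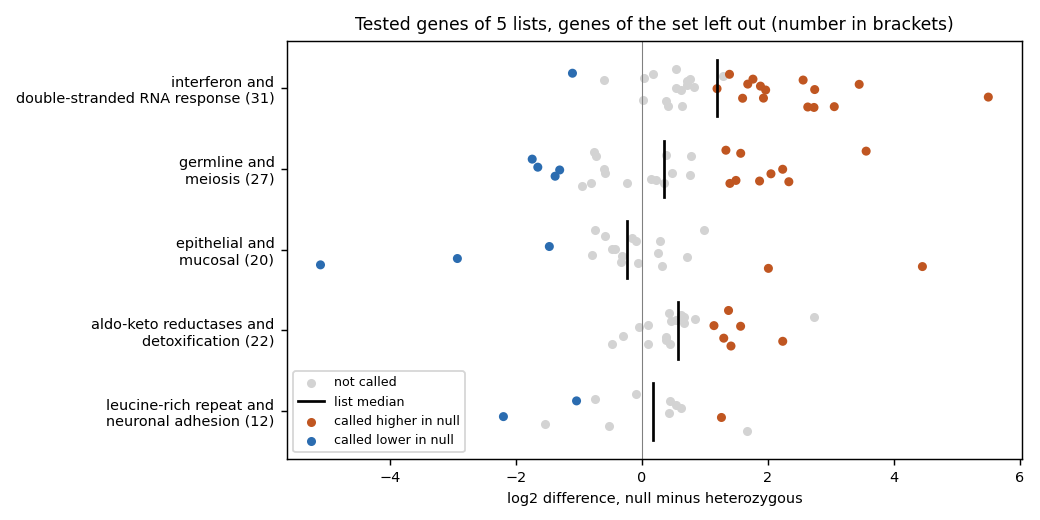
Log2 difference, null minus heterozygous, of each tested gene in 5 lists, with the genes of the set left out. Coloured points were called by limma, and black bars are list medians; the interferon list has 15 called higher and 1 lower, and the epithelial list 2 and 3.

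Both lines expressed the markers of ES cells, and markers of other cell types moved in part. The 12 ES cell markers were at 32 or more in all arrays and summed to 118591 to 123253 in heterozygous and 117903 to 124606 in null arrays. Pou5f1, Nanog and Sox2 had log2 differences of -0.13, 0.08 and 0.13, with limma adjusted p values of 0.104, 0.263 and 0.252. At a limma adjusted p under 0.05, Klf2, Fgf4 and Tfcp2l1 were higher in null cells, by 0.80, 0.52 and 0.19. Utf1, Tdgf1 and Klf4 were lower at that threshold, at -0.27, -0.23 and -0.30. None of the 12 reached the log2 difference for a call. Primitive endoderm markers summed to 2041 to 2867 against 776 to 826, and trophectoderm markers to 1895 to 2445 against 1703 to 2409. Of those tested, 4 of 9 primitive endoderm markers and 1 of 8 trophectoderm markers were called lower, against 6.2% of all tested genes. Neural markers summed to 10002 to 10567 against 11511 to 12542, most of it Stmn2. Against 7.23% of all tested genes, 2 of 6 tested neural markers were called higher. These were Pax6, a homeobox factor of neural progenitors, which rose from 151 ± 23.3 to 571 ± 37.2 (SD, n = 3; limma adjusted p 1.17e-06), and Map2, a microtubule protein of neurons, from 84.1 ± 6.79 to 251 ± 42.4 (5.23e-05); Neurog2 and Olig2 were under 32 in all arrays. The part of neural cells in the neural and glial genes of the set was not tested. Of the sex chromosome genes, Xist fell from 336 ± 29.6 to 122 ± 2.20 (limma adjusted p 1e-05) and the Y-linked gene Kdm5d was under 32 in all arrays. The Y-linked Eif2s3y went from 1621 ± 179.9 to 2723 ± 338 (limma adjusted p 0.000119, short of the log2 difference for a call) and Uty from 233 ± 8.67 to 183 ± 18.1 (0.0653), so Y-linked transcripts were measured in both lines. Haematopoietic markers summed to 3317 to 3534 against 6184 to 6555, mainly through Laptm5 (from 1742 ± 136 to 3742 ± 127.9) and Cd68 (from 993 ± 69.2 to 1985 ± 199), while the defining marker Ptprc was under 32 in all arrays. Of 10 haematopoietic markers tested, 1 was called higher (Laptm5) and 1 lower (Cd79a), against 7.23% and 6.2% of all tested genes. Cd79a fell from 88.3 ± 24.4 to 33.5 ± 11.7 (SD, n = 3), with a limma adjusted p of 0.0162. Gata2 fell from 152 ± 10.2 to 107 ± 4.20 (limma adjusted p 0.0399), short of the log2 difference for a call. The Laptm5 probe set ends in _x_at, so signal from another gene may be included. No gene of the set is on a marker list, and the part of other cell types in the set was not tested. A lower share of cells of a type and less RNA per cell cannot be told apart in bulk samples.

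Promoters of the set ranged widely in CpG content. CpG content is given as observed over expected, the number of CpG dinucleotides relative to that from the C and G content, and the highest window of each gene was used. The median was 0.60 in the 28 genes of the set, 0.27 in 2033 genes whose probe sets were all under 32 in all 6 arrays, 0.82 in 7908 genes at 64 or more in all of them and 0.70 in all 14368 genes with a window. A ratio of at least 0.6 is usual in CpG islands, and 14 of the 28 genes were at 0.6 or above, a share of 50% against 60.1% of all genes with a window and 60.6% of the mirrored rule; it was 18.9% in the low and 82.4% in the widely measured genes. The highest were Aff3 (1.14), Gpatch11 (0.96) and Prdm16 (0.94), and the lowest Frk (0.07), Nr2f2 (0.11) and Akr1c13 (0.14). The printed windows show the contrast, with 12 CpG in Mmp23 and 2 in Smyd1.

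**Figure D5:**
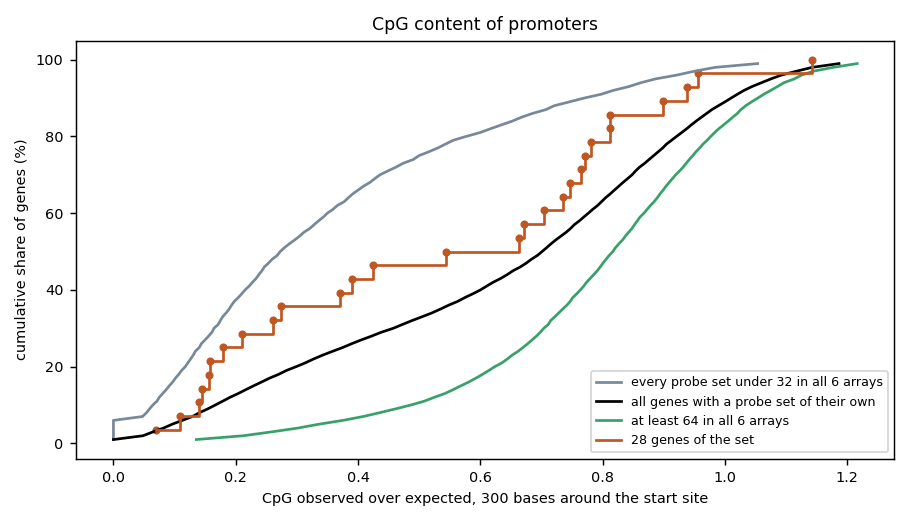
Cumulative share of genes by CpG observed over expected in the 300 bases around the start site. The 28 genes of the set (points and steps) lie between genes with every probe set under 32 and genes at 64 or more in all arrays, with medians of 0.60, 0.27 and 0.82.

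Of the 9 motifs searched on both strands of these windows, the interferon element was found in Ifit1 and Ddx60 alone among the genes of the set. Its core was present in these 2 of 28 genes (7.14%), in 2 of 33 of the mirrored rule (6.06%) and in 3.64% of all genes with a window, and both genes carry it at 2 places, starting 104 and 85 bases before the start site in Ifit1 and 53 and 19 before it in Ddx60. Zbp1 and Sting1 were not among the 28. The GC box GGGCGG was found in 16 genes (57.1%, against 57.5% of all), the TATA box TATAAA in Smyd1 and Ddx60 (7.14%, against 11.5%), and the STAT site TTCNNNGAA in Mmp23 (3.57%, against 8.57%). TGACGTCA, the CRE, was found in Hhip, TGANTCA, the AP-1 site, in Senp7, and AGATAA, the GATA site, in Serpinf1, each 3.57% of the set, against 2.94%, 7.5% and 9.53% of all genes. The E-box CACGTG was found in 0 of 28 genes of the set, in 10.3% of all genes and in 7 of 33 of the mirrored rule, and the octamer ATTTGCAT in 0, against 1.68% of all. No match shared bases with a match of another motif. A match describes these letters in this window and does not show that a factor binds there.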

How the data were processed

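The authors deposited 1 table of linear intensities for 45101 probe sets on 6 Affymetrix arrays, 3 from each line. The submitters' processing notes name GCRMA, with no version or settings, while every deposited array has a mean of about 500 after 2% of its values are left out at each end; the step that set this is not given in the sources used here. No detection calls were used, and precision is limited by having 3 arrays a line. Of the probe sets, 64 controls, 932 with several gene symbols and 9160 with none were left out of the gene lists.

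The 42 genes and all gene lists were chosen with earlier results of these data known, and the roles were assigned after the genes were known. For other genes, the brightest probe set (by mean log2) of each gene that reached 32 in at least 3 arrays was tested on the log2 scale with limma 3.58.1 (R 4.3.3; lmFit and eBayes with trend, Benjamini-Hochberg adjustment over 12927 genes), and the script was tested on simulated data. Calls needed a log2 difference of 1 or more and an adjusted p below 0.05. The 5 pathway lists and 7 marker lists hold background knowledge. Values in each array are given for the 20 genes of the set with the highest null mean, those on a list and the 3 nearest each threshold, and for Ddx60, added after its values were seen because its promoter is shown; other genes are named for lying just outside a threshold, for being called neighbours, as up to 4 called genes per pathway list, or as markers. Further probe sets are named as examples chosen after their values were seen. Neighbour order and promoters came from RefSeq tables of GRCm38.p6; the sources used here name no build for the array. Same-numbered arrays of the 2 lines deviated together only weakly, and no pairing was used. Their deviations correlated at 0.03, 0.03 and 0.08, against -0.045 to 0.010 for differently numbered arrays.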

Additional observations from a re-analysis of the deposited data

Results flagged for a closer look

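Probe sets outside the gene lists met the same thresholds. The 4 with no gene symbol in the annotation used were 1448057_at, 1436580_at, 1437968_at and 1457433_x_at. Of these, 1448057_at read 10.2, 23.8 and 2.92 against 368, 351 and 353 in heterozygous and null arrays, a higher mean null intensity than any of the 42 genes. 1 probe set with several symbols, 1449580_s_at for H2-DMb2 and H2-DMb1, which help load peptides onto class II histocompatibility molecules, read 5.29, 25.1 and 3.76 against 81.8, 85.9 and 110.4.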

How the results depend on the processing

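The number of genes in the set moved with its thresholds: 12 genes were left with the upper threshold at 2 times 64, 68 met thresholds both 2 times as high (14 of them among the 42), 23 below 24 and at least 64, and 66 below 32 and at least 48. Taking the brightest probe set first gave 23 genes, and leaving out 1 array gave 47 to 65. It was 51 with arrays centred on their medians, 48 after quantile normalization, 31 without probe sets ending in _a_at, _s_at or _x_at, and 30 without chromosomes 1 and 11, the last of these added after seeing the data. No log2 difference of the 42 genes reversed. The thresholds fix this in advance when low values are raised to 32, 32 is added or an array is left out. All 42 shrank by more than the replicate spread when low values were raised to 32 or 32 was added before log2. The thresholds also fix in advance that both steps shrink each difference. The interferon list had 9 called higher and 2 lower without probe sets of those endings, and 0 lower with centred arrays. Leaving out 1 array gave 0 to 1 called lower on it. The neuronal adhesion list had 0 called higher with the mean over probe sets or without those endings, and 1 called lower with log2(value + 32) or centred arrays; leaving out 1 array gave 1 to 3. The germline list had 2 called lower when the filter on low values was 4 times as high. Genes called lower numbered 525 with that filter and 534 with log2(value + 32). With the replicate number as a block, 937 genes were called higher and 809 lower, and same-numbered arrays correlated at 0.03, 0.03 and 0.08 in their deviations. Apart from that shrinkage of the 42 differences, the cause of these changes was not tested. Neighbours called higher numbered 11 to 16 over the alternatives with all chromosomes. Values near 32 limit every fold of the set.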
